A study of Mus musculus with 2 samples.

Results

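The cells described here are those of day 2.5 mouse gastruloids that carried RNA of Irx3 or Irx5 and none of T or Eomes. A cell was a member if it had at least 1 UMI of Irx3 or Irx5 and 0 UMIs each of T and Eomes, among cells with at least 2500 UMIs, at least 1000 genes and at most 10% mitochondrial UMIs. UMIs are random tags put on each captured RNA molecule, so that a UMI count is a count of molecules. Of 19294 cells, 1835 were members: the library labelled wild type gave 1298 of its 8707 cells and the library labelled double knockout 537 of 10587. They were set against 2827 and 2855 cells of the same libraries with 0 UMIs of Irx3, Irx5, T and Eomes, called Irx-negative cells below. A further 876 and 631 Irx-positive cells had a UMI of T or Eomes and were not members.

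Gastruloids are aggregates of embryonic stem cells that begin to pattern a body axis in culture. Both groups were grown from about 300 R1 mouse embryonic stem cells per aggregate in serum-free N2B27 medium and received 3 µM CHIR, a GSK3 inhibitor that turns on Wnt signalling, for 12 hours from day 2. One group was labelled wild type. The other was labelled as lacking both Sp5 and Sp8, which encode zinc finger transcription factors of the Wnt response, and the labels do not say how many clones that line holds or which alleles it carries. Aggregates of a group were pooled before dissociation and each group gave 1 single-cell library, so no difference here has a replicate check and no test between groups was possible. Intervals are 95% intervals and cover counting error only. PCR copies are removed by the UMIs, but the spread between cultures is not in these intervals.

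Irx3 and Irx5 encode homeodomain transcription factors of the Iroquois family, which lie in 1 genomic cluster with Irx6 and are used many times in development. In the early mouse embryo Irx genes mark parts of the ectoderm and neural plate behind the forebrain. T and Eomes encode the T-box factors that drive the primitive streak, the site where epiblast cells leave to form mesoderm and endoderm. Gbx2, a homeobox gene known for opposing Otx2 at the border of midbrain and hindbrain, was given as the third marker of these cells.

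The kept cells held 97157331 UMIs with the wild type label and 97644169 with the double knockout label. Members had a median of 10322.5 and 8112 UMIs, against 9285 and 7623 in the Irx-negative cells. Both libraries shared 27 barcodes among their kept cells. A doublet score marked 5.01% and 5.03% of members and 2.65% and 3.75% of Irx-negative cells, and these cells were kept in the main values. Some cells had a low share of UMIs on chromosome 11, at most 0.8 times the median share. They made up 12.2% and 1.49% of members and 17.3% and 5.18% of Irx-negative cells, and for chromosome 6 the shares were 17.0% and 24.2% of members and 21.0% and 18.4% of Irx-negative cells. The part of doublets and of these chromosome shares in the results was measured by leaving such cells out, and the 24 genes with the largest differences, described below, kept their direction in both libraries.

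The targeted genes went against the label. Among members, Sp5 (chromosome 2, 70474923 to 70477729, plus strand) stood at 89.6 CPM (84.7 to 94.7) with the wild type label and at 489.5 CPM (469.6 to 510.1) with the double knockout label. CPM is the count of a gene scaled to 1000000 UMIs in the summed cells of a group. Sp8 (chromosome 12, 118846329 to 118852576, plus strand) stood at 24.4 CPM (21.9 to 27.2) and 51.3 CPM (45.0 to 58.2). Each direction between the libraries is therefore one between labels only, and is not to be read as an effect of losing Sp5 or Sp8. UMIs from the end of a transcript cannot show whether it was edited further upstream.

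Irx-positive cells without T and Eomes were more frequent in the library labelled wild type. Members made up 14.9% of its kept cells (14.2 to 15.7), against 5.07% (4.66 to 5.51) with the double knockout label. Because a deeper cell has more chances to show a UMI, each cell was also thinned at random to 2500 UMIs and the rule applied again. The shares were then 7.20% (6.67 to 7.76) and 2.95% (2.63 to 3.29), and the intervals did not overlap either way. Thinning also removes T and Eomes UMIs. Of the 627 and 312 members by the thinned rule, 469 and 223 had no T or Eomes UMI before thinning. The rule also asks for the absence of T and Eomes, so both parts of it were taken apart. Cells with 0 UMIs of T and Eomes were 47.4% and 32.0% of kept cells, and within them Irx-positive cells after thinning were 11.4% (10.4 to 12.4) and 6.57% (5.76 to 7.46).

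Irx UMIs were rarer in cells with T or Eomes UMIs. In the library labelled wild type the thinned Irx-positive share was 11.4% without T and Eomes, 5.99% (4.45 to 7.86) with T only, 5.92% (4.99 to 6.96) with Eomes only and 4.57% (3.56 to 5.77) with both. With the double knockout label it was 6.57%, 3.40% (2.14 to 5.1), 2.95% (2.46 to 3.52) and 1.55% (1.1 to 2.12). The class without T and Eomes was the highest in each library although its cells were the shallowest before thinning, with medians of 9582 and 7703.5 UMIs against 12390 and 10038 in the class with both.

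**Figure D1:**
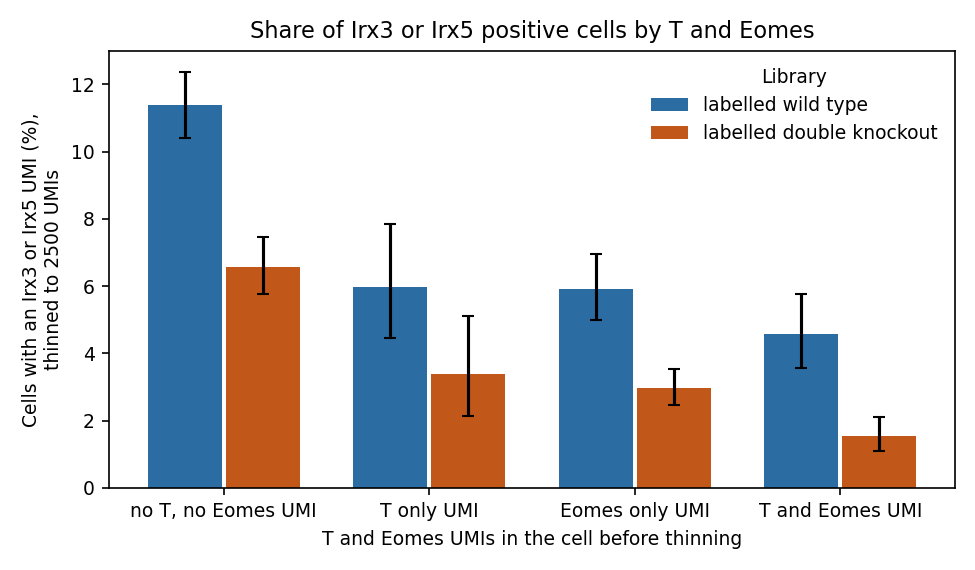
Share of cells with an Irx3 or Irx5 UMI after thinning to 2500 UMIs (%, vertical axis) by the T and Eomes UMIs of the cell before thinning (horizontal axis), for the library labelled wild type (blue) and labelled double knockout (orange). Bars are shares and lines are exact binomial 95% intervals. The share is highest in cells without T and Eomes (11.4% and 6.57%) and lowest in cells with both (4.57% and 1.55%).

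Free RNA in the droplets also gives UMIs, so the background was measured. In barcodes with 10 to 100 UMIs, which hold mostly free RNA, Irx3 stood at 27.0 CPM (22.2 to 32.7) and 10.6 CPM (7.0 to 15.5), against 19.8 and 8.17 CPM over all kept cells. Irx5 stood at 14.7 CPM (11.1 to 18.9) and 4.72 CPM (2.44 to 8.25), against 17.4 and 7.50 CPM in kept cells. Some Irx UMIs in single members can thus come from free RNA, and how many was not tested. Free RNA held more Irx3 and Irx5 with the wild type label, with intervals apart for both genes. That is the same direction as the share of members, and its part in the difference between the libraries was not tested. Naive-like and endoderm-like cells, which should lack Irx RNA, were too few to set a level. After thinning, 1 of 29 and 2 of 16 naive-like cells and 2 of 29 and 0 of 21 endoderm-like cells were Irx-positive, at median depths of 8928 to 11997 UMIs before thinning, and 0 of 21 allows a share of up to 16.1%.

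Irx3 (ENSMUSG00000031734, chromosome 8, 91798525 to 91802067, minus strand) and Irx5 (ENSMUSG00000031737, chromosome 8, 92357625 to 92376286, plus strand) tended to be caught in the same cells. Among thinned cells without T and Eomes in the library labelled wild type, Irx5 was found in 13.2% of cells with Irx3 (9.26 to 18.0) and in 5.65% of cells without it (4.95 to 6.43). These shares were, with the double knockout label, 13.2% (7.56 to 20.8) and 3.33% (2.74 to 4.0). Members were nearly evenly divided between both genes. Irx3 alone was seen in 39.1% and 43.6% of them, Irx5 alone in 36.4% and 42.1%, and both in 24.5% and 14.3%. Most members rested on 1 Irx UMI (59.9% and 72.4%), with 3 or more in 18.8% and 8.75%. Irx3 summed to 85.4 and 88.6 CPM over members and Irx5 to 75.0 CPM in each library, values that the rule itself sets. The antisense gene Irx3os overlaps Irx3 and whether strand was used in counting is not given in the sources used here, so reads of that pair cannot be told apart.

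The other Iroquois genes were not used by the rule. Irx2, of a separate Irx cluster, stood at 36.7 CPM in members and 28.5 CPM in Irx-negative cells with the wild type label, a log2 ratio of 0.37 (0.20 to 0.53). It stood at 36.8 and 25.7 CPM with the double knockout label, at 0.52 (0.27 to 0.77). Irx1, of the same separate cluster, stood at 14.4 against 9.37 CPM, at 0.62 (0.35 to 0.89), and at 19.4 against 7.87 CPM, at 1.30 (0.92 to 1.68). Both genes were thus higher in members of each library. Irx4 and Irx6 were near 0, with at most 0.862 CPM in any group. Crnde, a long non-coding RNA gene beside Irx5 on chromosome 8, was picked after its value was seen. It stood at 1.78 against 0.675 CPM and at 2.59 against 0.588 CPM, from 12 to 25 UMIs in each group of cells. The nearby genes Fto (0.09 and 0.26) and Rpgrip1l (0.15 and 0.60), also picked by position, had log2 ratios whose intervals held 0 in the library labelled wild type.

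All genes were then compared between members and Irx-negative cells. A gene was counted as past the fold if the larger CPM was at least 25% above the smaller, in the same direction in both libraries, which is a rule of size and not a test. Of 5579 genes that reached a mean CPM of 20 over the 4 groups of cells, leaving out the 4 genes of the rule, 62 were higher in members (1.11%) and 50 were lower (0.896%). Taken alone, the library labelled wild type had 85 higher (1.52%) and 72 lower (1.29%), and the library labelled double knockout, with fewer members, 240 higher (4.3%) and 117 lower (2.1%). The median log2 ratio over all 5579 genes was 0.02 and 0.03, with an SD across genes of 0.14 and 0.17. For all 112 genes past the fold in both libraries, both counting intervals lay away from 0. These genes were chosen by size from the same counts, so this is no separate support. When the rule was applied to thinned cells instead, 127 genes were higher and 74 lower, and these held 29 of the 62 higher and 26 of the 50 lower genes. Both thinned groups include cells that had T or Eomes UMIs before thinning.

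**Figure D2:**
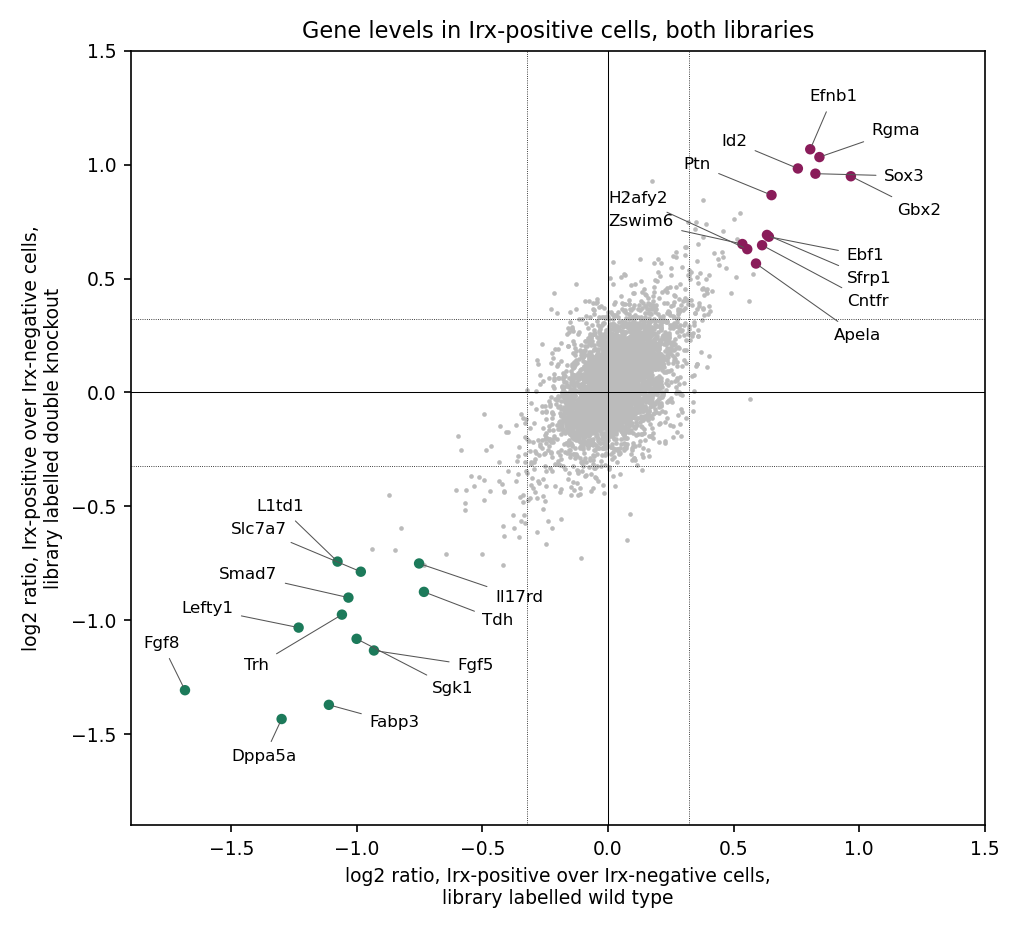
Each point is 1 of 5579 genes, placed by its log2 ratio of CPM in Irx-positive over Irx-negative cells in the library labelled wild type (horizontal axis) and labelled double knockout (vertical axis). Dotted lines mark values 25% apart, and the 12 highest (purple) and 12 lowest (green) genes by the smaller of both ratios are named. Gbx2 lies at 0.97 and 0.95, and Fgf8 at -1.68 and -1.31.

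Gbx2 and Meis2, from a list of 10 genes of the hindbrain side of the neural plate, were higher in members. Only 4 of the 10 genes reached a mean CPM of 10, and these were the 2 past the fold in both libraries. At that level, 1.43% of all 7624 genes were higher and 1.06% lower. Gbx2 (ENSMUSG00000034486, chromosome 1, 89927956 to 89931179, minus strand) stood at 52.7 CPM in members (49.0 to 56.6) and 27.0 CPM in Irx-negative cells (25.03 to 29.01) with the wild type label. With the double knockout label it stood at 51.9 CPM (45.6 to 58.9) and 26.9 CPM (24.8 to 29.2). The log2 ratios were 0.97 (0.82 to 1.12) and 0.95 (0.73 to 1.17), so the level of Gbx2 differed between members and Irx-negative cells and was alike between the libraries. A Gbx2 UMI was found after thinning in 11.9% of members (10.2 to 13.8) and 6.19% of Irx-negative cells (5.33 to 7.14) with the wild type label. The shares were 9.87% (7.48 to 12.7) and 5.67% (4.85 to 6.59) with the double knockout label. Gbx2 RNA was thus not restricted to members, and free RNA held it at 14.7 and 9.84 CPM. An annotated antisense gene, D130058E05Rik, overlaps it.

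Meis2, which encodes a homeodomain partner of Hox factors, lay below the mean CPM of 20 and is given because it was always to be named. It stood at 28.5 CPM in members and 11.8 CPM in Irx-negative cells with the wild type label, a log2 ratio of 1.27 (1.05 to 1.49). The pair was 23.7 and 6.70 CPM with the double knockout label, at 1.82 (1.45 to 2.19). The Hox genes Hoxa2, Hoxb1 and Hoxb2, which mark the hindbrain proper, were at or near 0 in members, with at most 0.215 CPM. Hesx1 and Six3, markers of the most anterior neural plate, were also at or near 0, with at most 0.284 CPM in members. Of the 10 listed genes of anterior epiblast and forebrain, 2 reached the mean CPM of 20. Of these, Otx2 was lower past the fold in both libraries and Sfrp1, a secreted Wnt antagonist, was higher (0.63 and 0.69).

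Otx2, the forebrain and midbrain gene that Gbx2 opposes, was lower in members of both libraries. It stood at 14.4 CPM in members and 21.0 CPM in Irx-negative cells with the wild type label, a log2 ratio of -0.54 (-0.79 to -0.31). The pair was 28.4 and 36.8 CPM with the double knockout label, at -0.37 (-0.65 to -0.11). Members with the double knockout label thus held more Otx2 RNA than Irx-negative cells with the wild type label, although both ratios pointed the same way. Otx2 has the antisense gene Otx2os1 and a same-strand overlap, Gm49154, which makes its values less certain.

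SoxB1 genes, which keep epiblast cells able to turn into neural cells, were higher in members. Sox3 stood at 96.2 CPM in members and 54.3 CPM in Irx-negative cells with the wild type label, a log2 ratio of 0.83 (0.72 to 0.93). With the double knockout label it stood at 71.5 and 36.8 CPM, at 0.96 (0.77 to 1.15). Sox2 had ratios of 0.51 (0.38 to 0.64) and 0.67 (0.46 to 0.88). Sox1, the SoxB1 gene most limited to neural cells, had a low level and large ratios: 15.6 against 7.69 CPM, at 1.02 (0.74 to 1.30), and 19.0 against 5.39 CPM, at 1.82 (1.40 to 2.23). Transcripts of Sox2ot and Sox1ot overlap Sox2 and Sox1 on the same strand.

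Of 17 listed neural plate genes, 11 reached the mean CPM of 20. Of these, 4 were higher past the fold in both libraries and none was lower, against 1.11% and 0.896% of all 5579 genes. The median log2 ratio was 0.30 and 0.40, against 0.02 and 0.03 over all genes. Sox3, Sox2, Fabp7, which encodes a fatty acid binding protein of neural progenitors, and Foxb1, a forkhead gene of the neural plate, were the 4. Zic2 (-0.21 and 0.02) and Zic5 (-0.14 and -0.27), which encode zinc finger factors of the dorsal neural tube, were not higher in both libraries. Pax6, a gene of later neural progenitors, stayed at 2.27 and 3.23 CPM in members. Pou5f1, the core pluripotency gene, remained abundant at 532.3 and 500.9 CPM in members, against 608.2 and 624.4 CPM in Irx-negative cells. Members therefore held abundant Pou5f1, though less than Irx-negative cells, together with more RNA of early neural genes. The name of epiblast cells rests on Pou5f1 and on the lack of T and Eomes UMIs, which the rule itself sets.

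The other genes among the 12 highest had various roles. Rgma, a glycolipid-anchored co-receptor for BMP and ligand of neogenin, stood at 36.2 CPM in members and 20.2 CPM in Irx-negative cells, and at 29.9 and 14.7 CPM in the library labelled double knockout. Efnb1, which encodes ephrin-B1, stood at 29.5 against 16.9 CPM and at 31.2 against 14.9 CPM. Id2, a BMP target that blocks differentiation factors, stood at 54.8 against 32.5 CPM and at 49.8 against 25.2 CPM. The log2 ratios of these 3 genes lay between 0.76 and 1.07, so each was higher by a similar amount in both libraries. Ptn, a heparin-binding growth factor, was the most abundant of the 12, at 226.1 against 144.0 CPM and 199.1 against 109.3 CPM. The remaining genes were Ebf1, Sfrp1, Cntfr, Apela, H2afy2 and Zswim6, with log2 ratios from 0.53 to 0.69. Apela encodes the peptide ligand of the apelin receptor.

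The FGF ligand genes Fgf8 and Fgf5 were lower in members, while the receptor genes Fgfr1 and Fgfr2 were higher. Fgf8 (ENSMUSG00000025219, chromosome 19, 45736798 to 45742915, minus strand), the FGF ligand of the primitive streak, stood at 17.1 CPM in members (15.0 to 19.4) and 55.1 CPM in Irx-negative cells (52.3 to 58.0) with the wild type label. With the double knockout label it stood at 33.4 CPM (28.3 to 39.1) and 82.9 CPM (79.1 to 86.8). The log2 ratios of -1.68 (-1.89 to -1.49) and -1.31 (-1.56 to -1.07) were, by the smaller of both, the lowest among genes with a mean CPM of 20 or more. Fgf5, the FGF ligand that marks the primed epiblast, had ratios of -0.93 (-1.12 to -0.75) and -1.13 (-1.42 to -0.87). Of the other listed ligands, Fgf15 had -0.33 and 0.14, and Fgf4 and Fgf17 stayed at no more than 2.77 CPM in any group. Fgfr1, the main FGF receptor of the epiblast, stood at 230.2 against 166.3 CPM and 223.0 against 152.9 CPM, at 0.47 and 0.55. Fgfr2 stood at 18.4 against 8.14 CPM and 17.9 against 7.51 CPM, at 1.18 (0.91 to 1.44) and 1.26 (0.85 to 1.64). Its annotated span holds many other genes on both strands, so its value is less certain. The FGF targets Etv5 (-0.82 and -0.60), Spry2 (-0.36 and -0.24) and Etv4 (-0.15 and -0.17) had ratios under 0. Spred1, a feedback inhibitor, went the other way at 0.28 and 0.41. Spry1 (-0.82 and 0.03) and Spry4 (-0.0040 and 0.13), at lower levels, did not have ratios under 0 in both libraries. In all, 7 of 15 listed FGF genes reached the mean CPM of 20, with medians of -0.36 and -0.24. Past the fold in both libraries were 1 higher and 3 lower, against 1.11% and 0.896% of all 5579 genes.

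Nodal pathway genes were lower in members. Nodal signalling holds the epiblast in the primed state and, at higher dose, directs mesendoderm. At a mean CPM of at least 10, 6 of 8 listed genes were lower past the fold in both libraries and none was higher. Over all 7624 genes at that level, 1.06% were lower and 1.43% higher. The medians of the 8 genes were -1.16 and -0.83. Tdgf1, which encodes the Nodal co-receptor Cripto, stood at 5.54 against 20.2 CPM and 11.9 against 31.8 CPM, at -1.86 (-2.23 to -1.52) and -1.41 (-1.85 to -1.03). Nodal itself stood at 11.9 against 25.5 CPM and 12.5 against 24.9 CPM, at -1.09 and -0.98. Its feedback inhibitor Lefty1 stood at 25.8 against 60.6 CPM and 35.3 against 72.5 CPM, at -1.23 and -1.03. Smad7, an intracellular inhibitor of TGF-beta signalling, had ratios of -1.03 and -0.90, and Lefty2 was also past the fold. The receptor gene Acvr2b was not lower, at 0.18 and 0.15.

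Primed epiblast genes as a list were somewhat lower in members. Of 16 listed genes 14 reached the mean CPM of 20. Of these, 4 were lower and 1 was higher past the fold in both libraries, against 0.896% and 1.11% of all 5579 genes. The medians of the 14 genes were -0.18 and -0.29. Trh, which encodes thyrotropin-releasing hormone and is abundant in these cells, stood at 174.1 against 362.9 CPM and 316.9 against 623.2 CPM, at -1.06 and -0.98. Fgf5, Trh, Utf1, a chromatin factor of pluripotent cells, and Otx2 were the 4 lower genes. The higher one was Sox3, which the neural plate list also holds. Dnmt3b, the de novo DNA methyltransferase of the epiblast, was nearly level at -0.06 (599 against 623 CPM) and was -0.25 in the library labelled double knockout.

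Members held less RNA of several genes of pluripotent cells. Dppa5a, a pluripotency-associated RNA-binding protein gene, stood at 69.2 against 170.4 CPM and 63.3 against 171.3 CPM, at -1.30 (-1.40 to -1.20) and -1.43 (-1.61 to -1.26). Tdh, which encodes the threonine dehydrogenase of mouse stem cells, had ratios of -0.73 and -0.88. L1td1, an RNA-binding protein gene of stem cells, had ratios of -1.08 and -0.74. Nanog stood at 68.3 against 101.3 CPM and 73.7 against 105.5 CPM, at -0.57 and -0.52. Klf2 went the other way, at 0.41 (0.28 to 0.54) and 0.36 (0.11 to 0.59). Of 14 listed naive genes 3 reached the mean CPM of 20, with 2 lower and 1 higher past the fold in both libraries. The shares over all 5579 genes were 0.896% lower and 1.11% higher. Below that level, at a mean CPM of at least 10, the list also held Zfp42 (-1.17 and -0.81) and Klf4 (0.27 and 0.0041). Naive-like cells, with UMIs of at least 3 of Zfp42, Esrrb, Klf4, Tfcp2l1 and Tbx3, were 1 of 1298 and 1 of 537 members and 17 of 2827 and 6 of 2855 Irx-negative cells. Without them the 12 lowest genes were still past the fold in both libraries.

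The remaining genes among the 12 lowest had no single role. Fabp3, which encodes a fatty acid binding protein, had ratios of -1.11 and -1.37, and Sgk1, a kinase gene induced by serum and steroids, -1.0 and -1.08. Slc7a7, an amino acid transporter gene, had ratios of -0.98 and -0.79. Il17rd, an inhibitor of FGF signalling also known as Sef, had -0.75 in both libraries. Of the 24 highest and lowest genes, 7 have an annotated antisense gene and 3 a gene that overlaps on the same strand.

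Wnt feedback genes, a class known to be induced by Wnt signalling, showed no common difference between members and Irx-negative cells. Of 16 listed genes 10 reached the mean CPM of 20 and none was past the fold in both libraries, with medians of -0.06 and 0.17. Axin2, the standard feedback gene, stood at 85.8 against 77.8 CPM and 77.4 against 71.5 CPM, at 0.14 (0.04 to 0.24) and 0.12 (-0.06 to 0.28). Nkd1, another Wnt inhibitor, had ratios of 0.24 and 0.31, and Sp8 had 0.28 and 0.35. Sp5 had -0.08 (-0.18 to 0.02) and 0.24 (0.17 to 0.31), so members did not hold less Sp5 RNA than Irx-negative cells with the double knockout label.

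Lists of other pathways held few genes at the mean CPM of 20, so their counts past the fold rest on small numbers. For comparison, 1.11% of all 5579 genes were higher and 0.896% lower past the fold in both libraries. Of 14 primitive streak genes 3 reached the mean CPM of 20. Fgf8 and Wnt3 (-0.51 and -0.37), a Wnt ligand of the streak, were lower past the fold in both libraries. The remaining gene, Cdh2, which the neural plate list also holds, had ratios of 0.31 and 0.64. Of 13 BMP and Id genes 6 reached it, with Id2 higher and Smad7 lower. Crabp2, which encodes a retinoic acid binding protein, was higher at 0.53 (0.39 to 0.67) and 0.79 (0.55 to 1.02), as 1 of 3 retinoic acid genes at that level. None of 4 Notch and 6 stress response genes was past the fold in both libraries. Nkx1-2, the 1 caudal epiblast gene at that level, stood at 0.06 and 0.52, but its span lies inside that of Fgfr2.

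Most endoderm and mesoderm markers were low in members. The 10 endoderm genes summed to 17.7 and 14.2 CPM in members and to 29.5 and 28.2 CPM in Irx-negative cells. Sox17, which defines endoderm, stood at 0.284 and 0.215 CPM in members, and no member had UMIs of 2 or more of 5 endoderm markers. The 9 mesoderm genes summed to 33.9 and 37.3 CPM against 43.4 and 38.3 CPM, mostly from Dll3 and Twist1, with Msgn1 at 0 in every group. The 9 surface ectoderm genes summed higher in members, to 68.8 and 74.1 CPM against 57.1 and 54.9 CPM. Krt8 among them stood at 25.1 against 19.3 CPM and 28.7 against 17.9 CPM. The caudal gene Cdx2 stood at 4.83 against 8.59 CPM, at -0.82 (-1.24 to -0.43), and at 3.88 against 4.80 CPM, at -0.27 (-1.12 to 0.42). Cell cycle genes differed little. Of 38 S phase and 51 G2/M genes at a mean CPM of at least 20, none was past the fold in both libraries, with medians of 0.02 and 0.06 for S phase and 0.10 and 0.08 for G2/M.

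**Figure D3:**
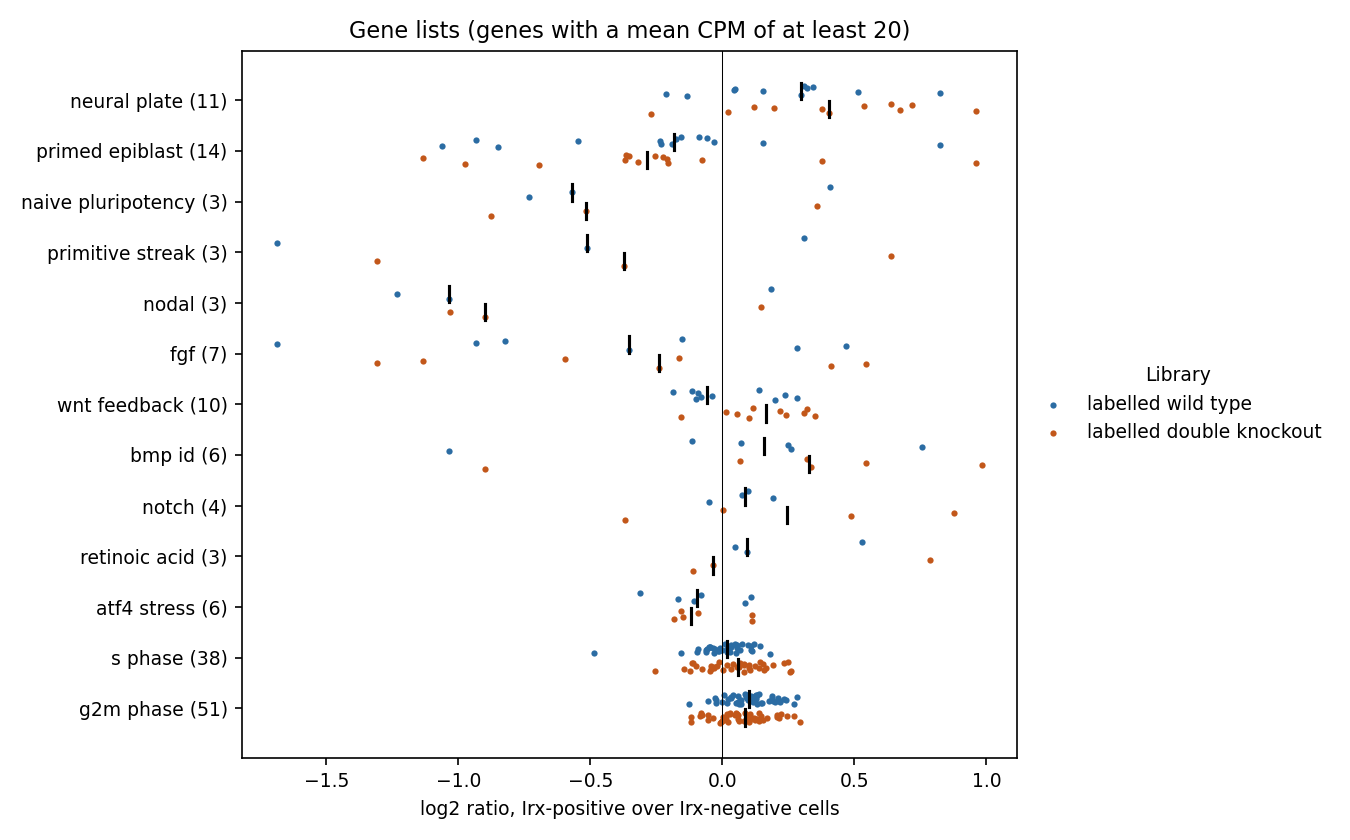
Log2 ratio of CPM in Irx-positive over Irx-negative cells (horizontal axis) for the genes of 13 lists with at least 3 genes at a mean CPM of 20 or more (number of genes in brackets), in the library labelled wild type (blue) and labelled double knockout (orange). Points are genes and black bars are medians. Neural plate genes lie mostly above 0 (medians 0.30 and 0.40), while Wnt feedback and cell cycle genes lie around it.

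Cells just inside and just outside the rule were compared at like depth, in cells of 8000 to 12000 UMIs. In the library labelled wild type Gbx2 stood at 31.3 CPM in cells with 0 Irx UMIs (28.3 to 34.5), 53.5 CPM with 1 (46.5 to 61.1), 59.2 CPM with 2 (46.9 to 73.7) and 58.9 CPM with 3 or more (45.9 to 74.4). The values with the double knockout label were 26.3 CPM (23.3 to 29.6), 44.8 CPM (34.7 to 56.9), 74.6 CPM (51.1 to 105.4) and 77.1 CPM (44.9 to 123.5). A single Irx UMI thus already went with more Gbx2, and the steps above 1 UMI lay within overlapping intervals. Fgf8 stood at 53.0, 17.5, 10.4 and 7.58 CPM with 0, 1, 2 and 3 or more Irx UMIs for the wild type label, and at 85.7, 34.8, 18.7 and 18.1 CPM in the other. Trh stood at 375.6, 196.6, 159.8 and 74.1 CPM, and at 657.1, 338.5, 331.2 and 86.2 CPM. Trh was lower in cells with 3 or more Irx UMIs than in those with 1, with intervals apart in both libraries. The library labelled double knockout had 22 cells in that last group.

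Meis2 showed the pattern less evenly. In the library labelled wild type it stood at 13.0, 27.7, 28.1 and 50.5 CPM, with the interval of the last (38.5 to 65.0) above that of cells with 1 Irx UMI (22.8 to 33.4). It stood, with the double knockout label, at 7.42, 20.7, 37.3 and 18.1 CPM, the last from 4 UMIs in 22 cells.

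**Figure D4:**
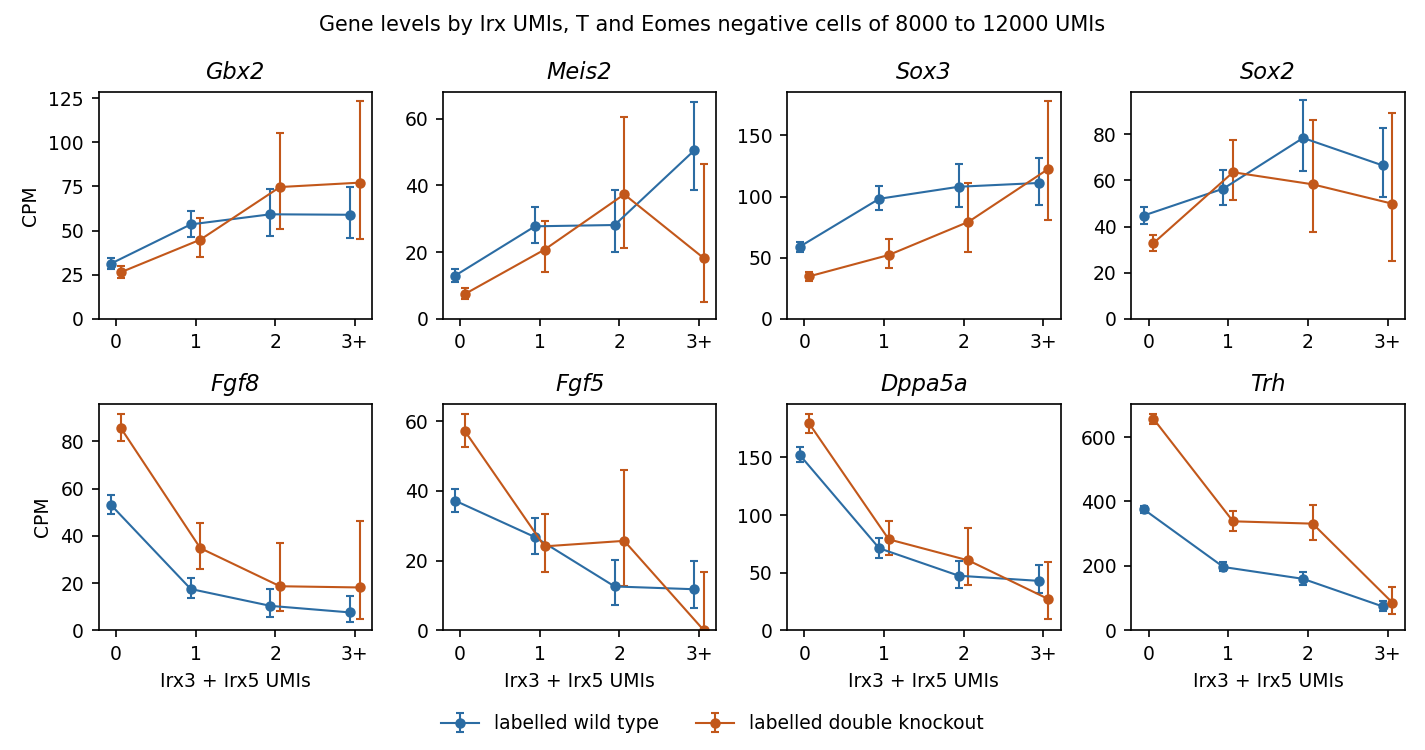
CPM of 8 genes (vertical axes) by the summed Irx3 and Irx5 UMIs of the cell (horizontal axis), among cells with 0 UMIs of T and Eomes and 8000 to 12000 UMIs, in the library labelled wild type (blue) and labelled double knockout (orange). Points are CPM of summed counts and lines exact Poisson 95% intervals. Gbx2, Meis2, Sox3 and Sox2 lie higher and Fgf8, Fgf5, Dppa5a and Trh lower with 1 Irx UMI than with 0 in both libraries.

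On the other side of the rule lay Irx-positive cells with exactly 1 UMI of T or Eomes, which the rule leaves out. At the same depth they held Gbx2 at 33.6 CPM (25.9 to 43.0) and 38.8 CPM (27.6 to 53.0), and Fgf8 at 56.6 CPM (46.3 to 68.5) and 55.7 CPM (42.1 to 72.3). Irx-positive cells with 2 or more such UMIs held Gbx2 at 19.1 and 15.1 CPM and Fgf8 at 121.3 and 128.9 CPM. Irx-negative cells with T or Eomes held Gbx2 at 12.5 and 11.9 CPM and Fgf8 at 138.8 and 194.8 CPM. The cells next to the limit thus lay between members with 1 Irx UMI and Irx-negative cells with T or Eomes for both genes. Against members with 1 Irx UMI, their intervals lay apart for both genes with the wild type label and overlapped for both with the double knockout label.

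At like depth, members with Irx3 only and with Irx5 only had overlapping intervals for Gbx2, Fgf8, Meis2 and Trh in both libraries. In the library labelled wild type Gbx2 stood at 60.0 CPM with Irx3 only (51.0 to 70.0), 47.8 CPM with Irx5 only (39.4 to 57.5) and 60.3 CPM with both (48.5 to 74.0). The values with the double knockout label were 44.7 CPM (32.2 to 60.4), 53.9 CPM (39.8 to 71.5) and 82.6 CPM (53.9 to 121.0), so the order of Irx3 only and Irx5 only was not the same in both. Lefty1 was an exception in the library labelled wild type, at 16.1 CPM with Irx3 only (11.7 to 21.7), 37.2 CPM with Irx5 only (29.8 to 45.9) and 4.64 CPM with both (1.86 to 9.55). With the double knockout label Lefty1 stood at 21.3 CPM (13.0 to 32.9) and 31.5 CPM (20.9 to 45.5) with Irx3 only and Irx5 only, and at 19.1 CPM (6.99 to 41.5) with both, with overlapping intervals. Lefty1 was picked for this contrast after its values were seen.

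Members were not uniform, and those with a Gbx2 UMI held more Meis2 and Sox1 RNA than those without. At 8000 to 12000 UMIs, 237 members with and 423 without a Gbx2 UMI were compared with the wild type label, and 80 and 145 with the double knockout label. Meis2 stood at 49.7 CPM with Gbx2 (41.2 to 59.6) and 21.8 CPM without (17.6 to 26.8), and at 39.1 CPM (26.4 to 55.9) and 15.2 CPM (9.44 to 23.3) with the double knockout label. Sox1 stood at 23.6 against 12.0 CPM and at 32.6 (21.1 to 48.1) against 14.5 CPM (8.87 to 22.4), with overlapping intervals for the second pair. Trh stood at 97.0 against 206.4 CPM and 153.9 against 398.5 CPM. Meis2 and Sox1 were thus higher, and Trh lower, in members with Gbx2 of both libraries. Otx2 stood at 7.59 CPM with Gbx2 (4.50 to 12.0) and 18.7 CPM without (14.8 to 23.3), and at 14.3 CPM (7.16 to 25.7) and 29.0 CPM (20.7 to 39.5), where the intervals overlapped in the library labelled double knockout. Irx3 and Irx5, whose levels in members the rule itself sets in part, had overlapping intervals with and without Gbx2. Irx3 stood at 102.0 against 89.9 CPM and 88.7 against 76.2 CPM. Irx5 stood at 73.4 against 78.2 CPM and 75.7 against 66.1 CPM.

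**Figure D5:**
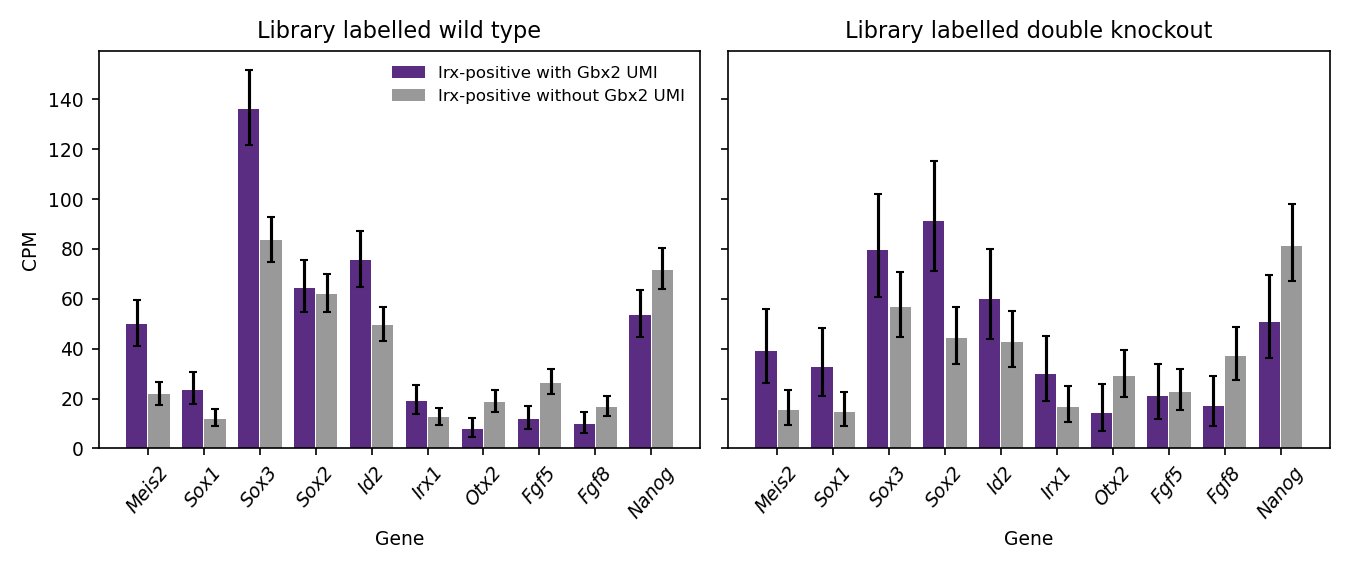
CPM (vertical axis) of 10 genes (horizontal axis) in Irx-positive cells of 8000 to 12000 UMIs with a Gbx2 UMI (purple) and without one (grey), for the library labelled wild type (left) and labelled double knockout (right). Bars are CPM of summed counts and lines exact Poisson 95% intervals. Meis2 is higher with Gbx2 in both libraries (49.7 against 21.8 CPM and 39.1 against 15.2 CPM).

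Members were last compared between the libraries, double knockout label over wild type label. Among the 5579 genes, 156 were past that limit and higher in members with the double knockout label (2.8%) and 181 were lower (3.24%). In the Irx-negative cells 72 were higher (1.29%) and 116 lower (2.08%). Of the 337 genes past the fold in members, 88 were past it the same way in Irx-negative cells. Members with the double knockout label held 4641227 UMIs in all, against 14079974, so their single values are the less precise ones.

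Sp5 had the highest log2 ratio among named genes, at 2.45 (2.35 to 2.55), followed by Sp8 at 1.07 (0.83 to 1.31). Otx2 was at 0.99 (0.66 to 1.31), Fgf8 at 0.97 (0.66 to 1.26), Trh at 0.86 (0.77 to 0.96) and Slc1a4, an amino acid transporter gene, at 0.76 (0.41 to 1.09). Grb10, an imprinted growth inhibitor gene, had the lowest ratio (chromosome 11, 11930508 to 12038683, minus strand). It stood at 62.9 CPM (58.8 to 67.1) and 9.91 CPM (7.26 to 13.2), at -2.65 (-3.13 to -2.24). The ratio in Irx-negative cells was like it, at -2.79. Rpa3, a replication protein A subunit gene, was at -0.84, and Sdhd, a respiratory chain gene, at -0.79, both with like values in Irx-negative cells (-0.78 and -0.66). Hacd2, Rab28 and Cebpb were at -0.69 to -0.67, with -0.27 to -0.24 in Irx-negative cells. Gbx2 was level at -0.02 (-0.24 to 0.19).

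For a few genes the difference between members and Irx-negative cells was not of the same size in both libraries. Jag1, which encodes a Notch ligand, stood at 21.6 against 20.5 CPM with the wild type label and at 26.9 against 14.7 CPM with the double knockout label, a difference of log2 ratios of 0.80. Epha4, an ephrin receptor gene, stood at 30.5 against 27.1 CPM and 36.8 against 19.4 CPM, a difference of 0.75. Lgalsl, which encodes a galectin-like protein, went the other way at -0.72, from ratios of 0.08 and -0.65. With 1 library a group these differences cannot be told apart from differences between cultures.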

How the data were processed

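Single-cell 3′ libraries were made with the 10x Genomics kit of version 3.1, per the labels. The deposited matrices give, for each gene, UMI counts that are whole and not normalized, for all 6794880 possible barcodes. Cell Ranger 8.0.1 at its default settings is named in the labels, and the submitters' processing notes name STARsolo, STAR 2.7.9a, Seurat 5.1.0 and mm10. Which of these wrote the matrices, and how strand was counted, is not given in the sources used here. Gene positions come from GENCODE on GRCm38 and were found for 32235 of 32285 features.

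The members and lists were chosen with earlier results of these data known. Barcodes with at least 2500 UMIs were kept, less 1 and 0 with under 1000 genes and 64 and 26 with over 10% mitochondrial UMIs. Counts were summed over cells of a group (Python 3.11.15, numpy 2.4.6, scipy 1.17.1, pandas 2.3.3) and divided by the group total as CPM, with a pseudocount of 0.5 in log2 ratios. Intervals are exact Poisson for CPM, exact conditional Poisson for ratios and Clopper-Pearson for shares. A Scrublet-type score marked the top 0.8% per 1000 cells as doublets, 6.96% and 8.47% of kept cells, and the marked cells were kept except in the alternative without them. No p-value is given.

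Named are the 12 highest and 12 lowest genes with the same sign in both libraries, ranked by the smaller absolute log2 ratio at a mean CPM of at least 20, the 6 highest and 6 lowest between the libraries in members, the 4 largest differences of ratios, up to 4 genes per list at a mean CPM of at least 10, and 14 genes always named. Mitochondrial, ribosomal, predicted and clone-named genes were left out. Other genes are named as at or near 0, or to show what a list holds. Simulated counts with known changes were put through the comparison of members with Irx-negative cells, over 5544 genes. They gave 100 of 100 genes past the fold for 2-fold changes, 98 of 100 for 1.5-fold changes and 0 of 5344 unchanged genes. The counts had Poisson error only, around the same base profile in both groups and both libraries. With no spread between cells or cultures and no free RNA, they check the calculation and give no rate of false calls in the data.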

Additional observations from a re-analysis of the deposited data

Results flagged for a closer look

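Ddx3y, a Y-linked RNA helicase gene, differed in opposite directions between members and Irx-negative cells of both libraries. It stood at 21.7 against 25.2 CPM in the library labelled wild type, a log2 ratio of -0.21 (-0.42 to -0.02), and at 29.7 against 22.0 CPM in the library labelled double knockout, at 0.44 (0.15 to 0.71). The difference of the ratios was 0.65, and it was not tested, since each group has 1 library. Predicted genes Gm4017 and Gm18665 overlap it on the same strand.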

How the results depend on the processing

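No paired analysis was possible because each group has 1 library, and for the same reason no library could be left out. Limits: most members rest on 1 Irx UMI, and members with the double knockout label are 537 cells. Free RNA holds Irx3 and Irx5, and more of both with the wild type label. Of 84 log2 ratios of named genes, none with a counting interval away from 0 changed direction under the 11 alternatives that recompute ratios. The 12 highest and 12 lowest genes were all past the fold under 11 of the 14 alternatives. With the rule applied after thinning 12 and 11 were, with a minimum mean CPM of 50, 4 and 4, and with a fold of 1.5, 9 and 12. Cells of 8000 to 12000 UMIs and leaving out naive-like cells were added after seeing the data.

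The share of members was 14.91% and 5.07% without thinning, 9.65% and 4.08% when thinned to 4000 UMIs, and 0.976% and 0.236% with at least 2 Irx UMIs in thinned cells. Genes higher in members numbered 138 with at least 2 Irx UMIs and 127 with the rule applied after thinning, when 29 of the 62 higher and 26 of the 50 lower genes were kept. The other alternatives at the same or a lower limit kept 40 to 62 of the higher and 38 to 50 of the lower genes. With a minimum mean CPM of 5, 184 were higher and 143 lower, with one of 50, 22 and 13, and with a fold of 1.5, 9 and 17. Between the libraries, 299 genes were lower in members with Irx3 alone in the rule, and 267 were higher and 319 lower with Irx5 alone. With at least 2 Irx UMIs 433 were higher and 504 lower, after thinning 750 and 738, and at 8000 to 12000 UMIs 388 and 396. With a minimum mean CPM of 5, 673 were higher and 693 lower, with one of 50, 50 each, and with a fold of 1.5, 14 and 17. At 8000 to 12000 UMIs the primed epiblast median was -0.277 with the wild type label and the nodal median -1.20 with the double knockout label. With a minimum mean CPM of 5 and the double knockout label the medians were -0.339 for naive, -0.740 for primitive streak and -0.663 for nodal genes. Beyond the changed limits themselves, the cause was not tested. Of the values of single genes under alternatives, 128 moved out of the counting interval and 796 did not. Moves were most frequent with at least 2 Irx UMIs (44 of 84 values) and with the rule applied after thinning (43 of 84).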

Other observations

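Beyond the ranked genes, further genes were past the fold in both libraries. Those given here were named after their values were seen. Of the 4 Frizzled genes at a mean CPM of 20 or more, which encode Wnt receptors, 3 were higher past the fold in both libraries and Fzd10 was not (-0.19 and 0.22). Among all 5579 genes, 1.11% were higher. Fzd2 stood at 157.4 against 105.5 CPM with the wild type label and at 146.9 against 102.6 CPM with the double knockout label. Fzd7 had log2 ratios of 0.45 (0.26 to 0.65) and 0.62 (0.27 to 0.94), and Fzd3 had 0.36 (0.17 to 0.54) and 0.58 (0.29 to 0.85). The glucose transporter genes Slc2a1 (0.39 and 0.44) and Slc2a3 (0.46 and 0.71) were higher as well. So were Sox11, a gene of early neurons and their progenitors, at 0.39 and 0.50, Zeb2, a repressor of E-cadherin, at 0.38 and 0.84, and Vcan, a matrix proteoglycan gene, at 0.44 and 0.56.

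Among the lower genes, Dppa4, a pluripotency-associated gene, had log2 ratios of -0.50 (-0.71 to -0.30) and -0.71 (-1.05 to -0.40), and the X-linked homeobox gene Rhox5 had -0.87 and -0.45. Pdk1, which encodes a pyruvate dehydrogenase kinase, had -0.94 and -0.69. Igfbp2, an abundant insulin-like growth factor binding protein gene, stood at 216.8 against 305.5 CPM and 270.6 against 353.1 CPM. Cldn7, a tight junction claudin gene, had -0.34 and -0.54, and the laminin gene Lama5 had -0.33 and -0.35. The keratin gene Krt8, also of epithelia, was higher instead, at 0.38 and 0.68.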
